A study of Mus musculus with 10 samples.

Results

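The cytosolic ribosomal protein genes are described here in T cells taken from mouse colorectal carcinomas. They were taken by symbol: Rpl or Rps followed by a digit, together with Rplp0, Rplp1, Rplp2 and Rpsa, without symbols that hold -ps or begin with Rps6k. Of 86 symbols that match, 83 had at least 100 UMIs (unique molecular identifiers, each standing for 1 captured transcript) over the 5 RNA libraries, out of 18378 features with at least 1 UMI. The other 3 were Rpl3l and Rpl10l, with 0 UMIs, and Rpl39l, with 48. The members comprise 49 Rpl symbols, for the large 60S subunit, and 34 Rps or Rpsa symbols, for the small 40S subunit. 1 of the latter, Rps19bp1, encodes a protein that binds Rps19 and is no ribosomal protein. The choice of members used no comparison between samples or cells. All 83 passed the filter on low counts in every comparison, except in that added between clones within effector CD8 cells.

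A ribosome carries a single copy of nearly every protein of its subunits, so cells make these proteins in near-equal amounts. Their messenger RNAs are short, very abundant and begin with a 5′ terminal oligopyrimidine tract (TOP), a C followed by a run of C and T, through which the mTORC1 pathway and Larp1 hold or release their translation. Naive T cells are small cells with few ribosomes, and activation is known to raise ribosome production together with growth. Some ribosomal proteins have a paralogue from another gene that can take the same place in the ribosome.

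Tumour-infiltrating T lymphocytes were profiled by droplet-based 5′ RNA sequencing in 5 libraries, and their T cell receptors (TCR) were sequenced in 5 matched libraries. Per the labels, 2 libraries of each kind came from untreated tumours, 1 from tumours given S. chamaejasme, a flowering plant (labelled S. Chamaejasme), and 2 from tumours given S. chamaejasme plus anti-PD-1, called the combination. Anti-PD-1, an antibody against an inhibitory receptor of T cells, has no group of its own among these samples, so its effect without S. chamaejasme is unknown. Its addition can be read only from the combination against 1 S. chamaejasme library of each kind. There it cannot be told apart from a difference between libraries. The labels give neither the strain and age of the mice, the tumour line, the dose nor the number of animals behind a library, and p-values then measure the spread between these libraries, which may be technical.

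The 5 RNA libraries held 8763821 to 27759543 UMIs, and 2244 to 5044 cells each were kept, 20239 in all. Median UMIs per cell were 3522 (untreated 1), 3915 (untreated 2), 3403.5 (S. chamaejasme), 4905.5 (combination 1) and 4830.5 (combination 2), so the combination libraries were the deepest per cell. Pairs of libraries shared 14 to 54 cell barcodes before filtering. Cells were clustered with the ribosomal protein genes left out, and clusters were named from their markers as CD8, CD4 conventional or regulatory T (Treg)-like cells in a resting or an effector state. The defining markers followed these names: Cd8a had 328 to 934 CPM (UMIs scaled to a common library total) in the CD8 classes and at most 43.2 in the others, and Foxp3 74.4 to 324 in the Treg classes and at most 6.67 in the others. Tnfrsf9, a receptor induced on activation, had 1.25 to 8.23 CPM in resting and 9.32 to 44.5 in effector CD8 cells, 2.16 to 4.45 and 29.3 to 83.3 in CD4 and 63.7 to 184 and 1016 to 1490 in Treg. Tcf7, a transcription factor of resting and memory T cells, separated the states in CD8 (at least 187 against at most 178 CPM) but overlapped between them in CD4 and Treg. Il7r, from the same list of 9 resting markers, overlapped in CD8 and CD4. In Treg it went the other way, with 76.5 to 185 CPM in resting and 244 to 525 in effector cells. The 9 markers summed to at least 4717 CPM in every resting class and at most 2829 in every effector class. Clusters were named with these 9 markers, Cd8a, Foxp3 and, for Treg, Tnfrsf9 among others, so their separation is no independent check. Summed markers of natural killer cells (4 genes) and fibroblasts (4 genes) reached at most 11.4 and 2.07 CPM in any class.

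The 83 members together held 33853226 of 97967927 UMIs. They lie on 19 chromosomes. Rps24, Rps27, Rps29, Rplp0 and Rps20 were the most abundant, and these 5 made up 14.2% of the members' UMIs. Rps24 had 1228013 UMIs and the median member 397858. The scarcest were the paralogues Rps27l (7120 UMIs) and Rpl7l1 (3400) and the binding protein Rps19bp1 (1814). A 5′ library counts 1 end per transcript, so levels of different genes were compared without division by length. Gene copies named as pseudogenes are outside the members but took reads: Rpl9-ps6 had 508254 UMIs against 111374 for Rpl9, and Rpl10-ps3 242811 against 70965 for Rpl10. Counts of Rpl9 and Rpl10 are therefore uncertain, since reads of near-identical copies can be split between them.

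The start sites of members on which the results below turn are shown because the TOP tract begins there. Each window has 30 bases, the last 10 before an annotated transcription start and the first 20 of the first exon, taken from RefSeq (GRCm38.p6) and written 5′ to 3′ on the gene's strand, with the longest run of C and T in capitals.
Rps24 (chr14:24490668-24490697, plus strand): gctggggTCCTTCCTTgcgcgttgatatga
Rpl35 (chr2:39005112-39005141, minus strand): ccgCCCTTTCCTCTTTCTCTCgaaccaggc
Rpl35a (chr16:33056472-33056501, plus strand): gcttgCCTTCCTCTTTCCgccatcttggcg
Rpl38 (chr11:114668570-114668599, plus strand): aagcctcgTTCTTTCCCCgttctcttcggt
Rpl13a (chr7:45128726-45128755, minus strand): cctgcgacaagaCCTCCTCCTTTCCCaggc
Rps27 (chr3:90213629-90213658, minus strand): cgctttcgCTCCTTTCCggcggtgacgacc
Rps27rt (chr9:114982720-114982749, minus strand): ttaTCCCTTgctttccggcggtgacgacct
Rps3a1 (chr3:86142649-86142678, minus strand): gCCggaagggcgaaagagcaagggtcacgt
Rpl5 (chr5:107900518-107900547, plus strand): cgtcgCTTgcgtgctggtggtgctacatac
Rps28 (chr17:33824543-33824572, minus strand): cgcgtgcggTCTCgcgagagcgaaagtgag
Rpl36a (chrX:134585644-134585673, plus strand): cccaggcaccgcctataaaCTTCCgttgcg
Rpl36al (chr12:69184048-69184077, minus strand): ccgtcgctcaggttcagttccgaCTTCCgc
Rps24 is the most abundant member, Rpl35 has the longest run of these 12, and Rps27rt, Rps3a1, Rpl5, Rps28, Rpl36a and Rpl36al have no run of 8 in this window. Rps24 and Rpl35a have other annotated starts, not shown, with longest runs of 7 bases and of 4 and 5. Rps19, also not shown, has no run above 7 at any of its starts, and Rps20 and Rps29 have no window. Rps27 and Rps27rt share 38 of their first 50 transcribed bases in 1 stretch, while the longest stretch shared by Rpl36a and Rpl36al was 7 bases. A run of at least 8 C or T that began within 10 bases of the start on either side was found in 24 of 74 member windows (32.4%), which cover 63 of the 83 members. It was found in 10.6% of all 32851 windows and in 6.67% of 75 windows of mitochondrial ribosomal protein genes. The word CCGGAAG, on either strand and anywhere in the 300 bases of a window (250 before to 50 after the start), stood in 35.1% of member windows, 34.7% of mitochondrial ribosomal protein windows and 8.86% of all. TATAAA, searched alike, stood in 9.46%, 6.67% and 13.6%.

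Resting T cells gave a far larger part of their transcripts to ribosomal proteins than effector cells did, in each lineage and in all 5 libraries. The share of UMIs was 42.9 ± 0.4% (SD, n = 5) in resting CD8 T-like cells, 40.3 ± 0.636% (SD, n = 5) in resting CD4 and 36.0 ± 0.435% (SD, n = 5) in resting Treg-like cells. In effector cells it was 27.7 ± 1.37% (SD, n = 5) for CD8, 27.9 ± 1.11% (SD, n = 5) for CD4 and 23.6 ± 1.04% (SD, n = 5) for Treg. No p-value is given for these shares, which are sums over the members.

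In resting CD8 cells the shares were 43.0 (untreated 1), 43.1 (untreated 2), 42.6 (S. chamaejasme), 43.5 (combination 1) and 42.5 (combination 2) (percent), and in effector CD8 cells 29.6, 28.3, 27.5, 25.9 and 27.2 in the same order. The ranges do not overlap, and the resting libraries lie closer together than the effector ones. Resting CD4 cells had 39.3, 40.3, 40.1, 41.1 and 40.5 and effector CD4 cells 29.7, 28.0, 26.9, 27.4 and 27.3. Resting Treg cells had 35.9, 36.6, 36.0, 36.1 and 35.4 and effector Treg cells 25.1, 24.2, 22.5, 23.0 and 23.3, the lowest of the 6 classes in each library. Within a library, effector cells differed by -15.2 ± 1.51 points in CD8, -12.4 ± 1.62 in CD4 and -12.4 ± 1.05 in Treg (SD over 5 libraries, lower in 5 of 5 in each lineage).

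**Figure D1:**
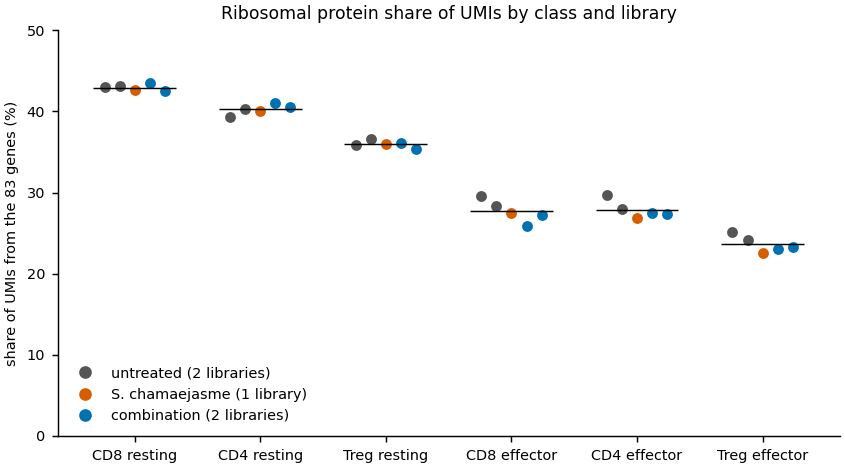
Share of UMIs from the 83 ribosomal protein genes (percent, vertical axis) in resting and effector CD8, CD4 and Treg-like cells, 1 point per library with a line at the mean. Every resting value lies above every effector value, from 35.4% up against 29.7% down.

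The lower share came with fewer ribosomal protein transcripts per cell, while the number of other transcripts stayed near its resting value or above it. Ribosomal protein UMIs of the median resting CD8 cell numbered 1864 (untreated 1), 2058.5 (untreated 2), 1990 (S. chamaejasme), 2673 (combination 1) and 2585 (combination 2), and those of the median effector CD8 cell 1142, 1207, 991, 1355 and 1275. Every effector value is below the lowest resting value. UMIs of all other genes per median cell were 2483, 2669, 2709, 3502 and 3516 at rest and 2846.5, 3010, 2718, 3669 and 3483 in effector cells. The ratio of effector to resting medians averaged 0.539 for ribosomal protein UMIs (0.493 to 0.613 over libraries) and 1.06 for other UMIs (0.991 to 1.15) in CD8. In CD4 these were 0.639 and 1.17, and in Treg 0.568 and 1.14. UMIs per cell depend on capture as well as on RNA content, which cannot be told apart here.

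**Figure D2:**
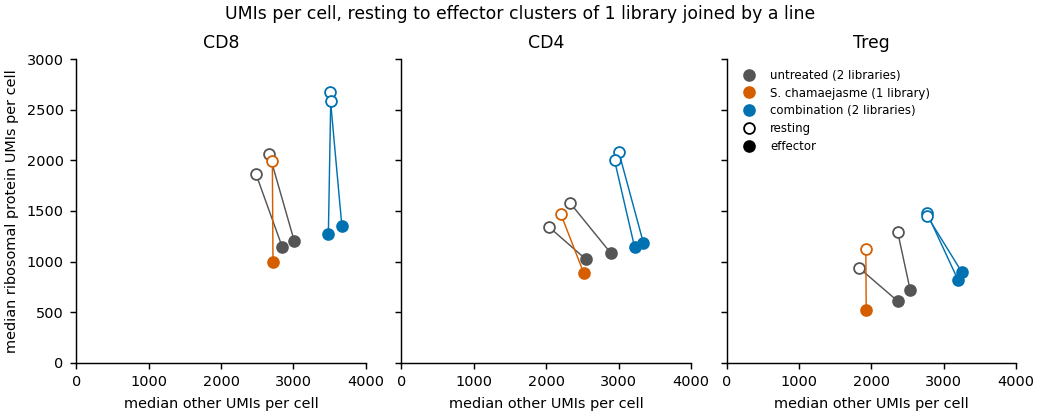
Median UMIs per cell from ribosomal protein genes (vertical axis) against those from all other genes (horizontal axis) in each lineage, with a line joining the resting (open) and effector (filled) point of a library, coloured by treatment. Ribosomal protein UMIs are lower at the effector end of every line, by a mean ratio of 0.539 in CD8, while the other UMIs stay near or above the resting value.

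Single clusters kept this order. Among CD4 cells, the cluster with Tox2, Tnfsf8 and Il21 among its leading genes, genes of follicular helper cells, had 28.2 ± 1.33% and the cluster with Il17a, Il17f and Il22, cytokines of type 17 helper cells, at its head 27.6 ± 1.16%. The resting CD4 clusters lay between 37.6 ± 2.42% and 40.8 ± 0.404%. The lower value is that of 105 cells led by the interferon-induced genes Ifit3 and Ifit1, in the 3 libraries with at least 10 such cells. Clusters without a class name lay on both sides. A cluster of 262 cells led by Trbv29, Lad1 and Myb had 35.3 ± 1.43%, near resting Treg-like cells. The others were low: the one led by the gamma delta receptor gene Trdv4 and Cd163l1 had 23.8 ± 1.18%, the one led by Xcl1, Fcer1g and Tyrobp 26.6 ± 0.844%, cycling cells with Pclaf and Birc5 among their leading genes 24.1 ± 3.34%, and 62 cells led by Jchain, Cd74 and Igkc 23.9 ± 7.24%, both of the last in the 2 libraries with at least 10 such cells. A cluster of 562 cells led by the noncoding transcripts Gm26917, Gm42418 and Malat1 ranged from 11.1% to 29.1%.

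Lineages differed as well at matched state. Resting CD4 cells differed from resting CD8 cells by -2.66 ± 0.628 points (lower in 5 of 5 libraries), and Treg-like cells from CD4 conventional cells by -4.26 ± 0.768 points at rest and -4.24 ± 0.300 in the effector state (lower in 5 of 5 in both). Effector CD8 and CD4 cells did not separate: the difference was -0.186 ± 0.838 points, smaller than its SD over libraries.

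Gene by gene, nearly the whole set fell together from the resting to the effector state. With edgeR's quasi-likelihood test on summed UMIs (library as a block, Benjamini-Hochberg adjusted p under 0.05 over all genes tested), 81 of 83 members fell in CD8 and 0 rose, where 18.4% of the 6969 genes tested fell and 20% rose. In CD4, 81 fell and 0 rose (background 25.4% and 26.2%), and in Treg 80 fell and 0 rose (background 16.7% and 20%). The same 80 members were lower in all 3 lineages. The median log2 difference of the members was -0.89 in CD8, -0.73 in CD4 and -0.82 in Treg, against 0.00, -0.02 and 0.01 over all genes tested. Small-subunit members had medians of -0.95, -0.79 and -0.92 and large-subunit members -0.83, -0.68 and -0.80, in that order.

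Because the members hold so large a part of the UMIs, the scale matters for the size of the fall. TMM scaling, used above and for every CPM value below that is set beside a log2 difference, centres the bulk of genes near 0. On library totals alone the members' medians were -0.60, -0.47 and -0.58 and the medians over all genes 0.29, 0.25 and 0.25. Calls over all genes then went from 1393 higher and 1279 lower to 2914 and 623 in CD8, from 2483 and 2405 to 4329 and 1111 in CD4, and from 1312 and 1095 to 2299 and 614 in Treg. Members called lower numbered 75, 79 and 78 on that scale.

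**Figure D3:**
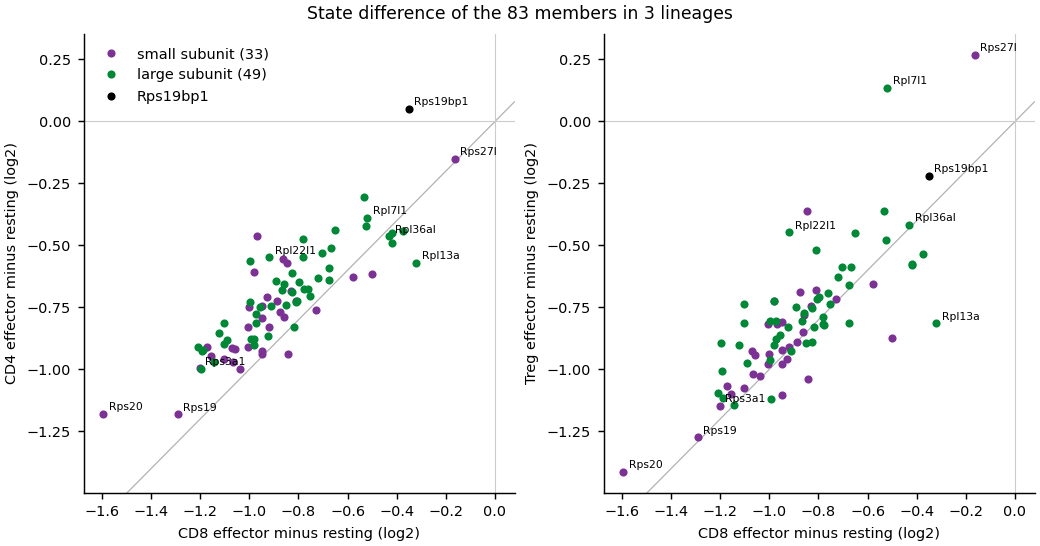
Log2 difference, effector minus resting, of each of the 83 members in CD8 (horizontal axis) against CD4 and against Treg-like cells (vertical axes), on the TMM scale, with named members labelled. Most points lie below 0 on both axes, with Rps20 and Rps19 lowest in each lineage, Rps27l highest in CD8 and Treg and Rps19bp1 highest in CD4.

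Among 40S proteins, Rps20, a protein of the subunit's head, fell most in CD8. Its level in resting CD8 cells was 12802 (untreated 1), 12901 (untreated 2), 13643 (S. chamaejasme), 12882 (combination 1) and 12442 (combination 2) (CPM), and in effector CD8 cells 4834, 4531, 4457, 3567 and 4129. The groups are far apart, with the highest effector library below the lowest resting one, and the log2 difference was -1.59 ± 0.07 (SE, edgeR adjusted p = 4.64e-14). In CD4 it was -1.18 ± 0.08 and in Treg -1.41 ± 0.05, with edgeR adjusted p = 3.07e-08 and 8.06e-22. Rps19, the gene most often mutated in Diamond-Blackfan anaemia, had 7847, 7905, 7368, 6943 and 6758 CPM in resting and 3658, 3208, 3141, 2425 and 2742 CPM in effector CD8 cells, again without overlap. It fell by 1.29, 1.18 and 1.27 on the log2 scale in CD8, CD4 and Treg. Rps24, the most abundant member, had 17845, 18310, 18767, 17065 and 16873 CPM at rest and 9909, 8968, 9720, 6945 and 8085 CPM in effector CD8 cells, and its log2 differences were -1.04, -1.0 and -1.03. Rps3a1 fell in each lineage too (-1.20, -1.0 and -1.15).

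Among 60S proteins, Rpl35, which sits near the exit of the peptide tunnel, fell most in CD8: from 5922, 6816, 6868, 6132 and 5868 CPM at rest to 3135, 3038, 2876, 2249 and 2450 CPM, with no overlap and a log2 difference of -1.21 ± 0.07 (edgeR adjusted p = 1.06e-11). Rpl5, which binds the 5S rRNA with Rpl11 and can hold Mdm2, had log2 differences of -1.20, -1.0 and -0.89 in CD8, CD4 and Treg, while Rpl11, its partner, had -0.72, -0.63 and -0.63. The stalk proteins Rplp0, Rplp1 and Rplp2, where elongation factors dock, fell by 1.10, 1.10 and 0.87 in CD8, and Rpl12, at the base of the stalk, by 1.14. The smallest falls of 60S proteins in CD8 were those of Rpl13a (-0.32 ± 0.07, edgeR adjusted p = 0.000595), known for silencing inflammatory transcripts outside the ribosome, Rpl27 (-0.37), Rpl7a (-0.42) and Rpl38 (-0.42), a protein needed for translation of Hox transcripts in mouse embryos.

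Few members did not pass the test. Rps27l, a paralogue of Rps27 and a p53 target, had log2 differences of -0.16, -0.15 and 0.27 (edgeR adjusted p = 0.278, 0.104 and 0.109), and the binding protein Rps19bp1 -0.35, 0.05 and -0.22 (edgeR adjusted p = 0.148, 0.73 and 0.522). Rpl7l1 fell in CD8 and CD4 (-0.52 and -0.39) and had 0.13 in Treg, where its edgeR adjusted p was 0.636. Its calls were lost on library totals (edgeR adjusted p = 0.246 and 0.301). The size of the fall per member went alike in the 3 lineages, with Pearson r of 0.85 between CD8 and CD4, 0.78 between CD8 and Treg and 0.83 between CD4 and Treg over the 83 members, which share libraries and clustering. The 24 members with a pyrimidine run at a start had median log2 differences of -0.89, -0.72 and -0.80 in CD8, CD4 and Treg, and the 39 without one -0.88, -0.72 and -0.81.

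Within the ribosomal protein transcripts the mix shifted. When each gene was tested relative to the summed members in place of all genes, 33 members were higher and 20 lower in effector CD8 cells. On that scale nearly every other gene is raised, since the members' sum falls, so the background was 84.7% higher and 2.31% lower. Counts were 38 higher and 25 lower in CD4 (background 82.6% and 3.44%) and 30 and 20 in Treg (background 82.8% and 2.37%). In all 3 lineages 22 members gained and 14 lost. Among those that lost were Rpl10a, Rpl12, Rpl35, Rpl35a, Rpl36a, Rps19, Rps20, Rps24, Rps28, Rps29, Rps3a1, Rps4x and Rps7. The Rpl36a call in Treg depends on how cells were classed: with classes set by marker gates its Treg difference relative to the members was 0.0263 on the log2 scale, of the opposite sign.

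Of every 1000 ribosomal protein UMIs in resting CD8 cells, Rps20 made up 27.7 (untreated 1), 25.6 (untreated 2), 29.4 (S. chamaejasme), 26.6 (combination 1) and 27.0 (combination 2), and in effector CD8 cells 17.6, 16.9, 18.1, 16.0 and 17.2. Every effector library is below every resting one (log2 difference relative to the members -0.67 ± 0.03, edgeR adjusted p = 3.09e-13). Rps19 went the same way, with -0.36, -0.39 and -0.42 in CD8, CD4 and Treg. The share of Rpl13a rose in each library, from 3.76, 6.29, 3.98, 7.77 and 7.74 to 5.63, 9.20, 5.91, 12.6 and 12 per 1000 in CD8, a log2 difference of 0.61 ± 0.04 (edgeR adjusted p = 2.35e-10). Its level also differed between libraries by more than between states, low in untreated replicate 1 and with S. chamaejasme and high in the combination. Rpl41, which encodes the shortest ribosomal peptide, had 0.40, 0.49 and 0.49 over the 3 lineages, Rpl24 0.40, 0.37 and 0.37 and Rpl38 0.51, 0.30 and 0.27, all past the test.

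Paralogue pairs differed in balance between the states, among them Rpl36a and Rpl36al, whose genes lie on chromosomes X and 12. In resting CD8 cells the percent of the pair's UMIs held by Rpl36al was 22.4 (untreated 1), 26.4 (untreated 2), 27.5 (S. chamaejasme), 24.5 (combination 1) and 24.6 (combination 2), and it was 32.1, 38.8, 36.2, 38.4 and 35.6 in effector CD8 cells. The lowest effector library lies above the highest resting one, and the difference within a library was 11.1 ± 2.06 points (SD, 5 of 5 libraries). In CD4 the share went from 25.1, 27.7, 27.9, 25.7 and 25.4 to 32.6, 36.1, 34.4, 30.8 and 31.5 (6.71 ± 1.29 points) and in Treg from 23.9, 26.5, 26.3, 25.1 and 25.3 to 36.4, 34.3, 34.8, 31.4 and 33.9 (8.77 ± 2.28 points), higher in 5 of 5 libraries in both. Both genes fell, Rpl36a by 1.19, 0.93 and 1.01 and Rpl36al by 0.43, 0.46 and 0.42 on the log2 scale (edgeR adjusted p = 2.31e-11, 1.2e-07 and 1.65e-16, and 5.8e-05, 0.000254 and 9.42e-06). With classes set by marker gates in place of clusters the Treg difference in share was 2.75 points, and on library totals the fall of Rpl36al in CD8 did not pass (-0.14, edgeR adjusted p = 0.0687).

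Rps27l was a small part of its pair with Rps27 and was largest in effector Treg cells. It held 1.28, 1.20, 0.646, 0.755 and 0.889% in resting and 1.72, 2.61, 2.33, 1.99 and 1.96% in effector Treg cells, without overlap, a difference of 1.17 ± 0.470 points. In CD8 the means were 0.528 ± 0.0649% and 0.906 ± 0.174%, and in CD4 0.509 ± 0.0950% and 0.864 ± 0.0668% (SD, n = 5, higher in 5 of 5 libraries in both). Rpl7l1 held 1.05 ± 0.267% of its pair with Rpl7 in resting and 2.20 ± 0.360% in effector Treg cells (5 of 5), with differences of 0.390 ± 0.360 and 0.307 ± 0.271 points in CD8 and CD4 (4 of 5 in both). With marker gates the Rpl7l1 difference was 2.24 points in Treg and 0.746 in CD4. Rpl22l1 held a far larger part, 40.1 ± 4.15% of its pair with Rpl22, a protein needed for the development of αβ T cells, in resting CD8 cells. Its change had no common direction: -4.13 ± 2.5 points in CD8 (lower in 5 of 5 libraries), -0.664 ± 2.08 in CD4 (lower in 3 of 5) and 2.31 ± 1.94 in Treg (higher in 4 of 5). With marker gates the Treg difference was 8.32 points, larger than that of Rpl36al there, and without untreated replicate 1 the CD4 difference was 0.192 points. Rpl39l had 48 UMIs in all and at most 0.0452% of its pair with Rpl39.

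**Figure D4:**
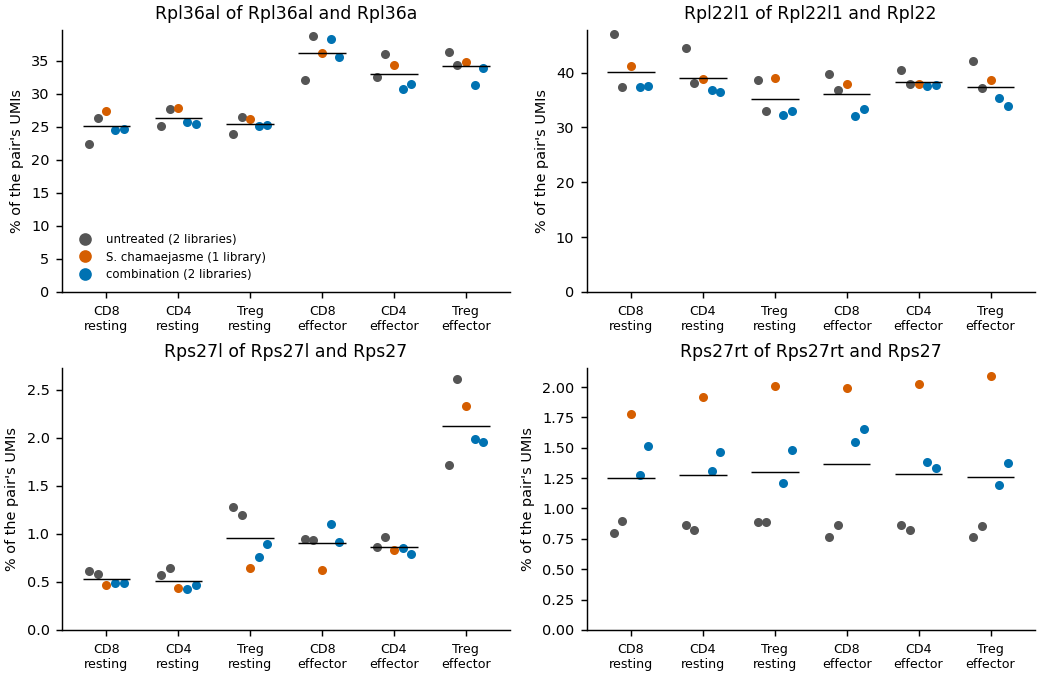
Percent of the UMIs of a pair held by Rpl36al, Rpl22l1, Rps27l or Rps27rt (vertical axes) in each class, 1 point per library. Rpl36al goes from 25.1% to 36.2% in CD8, and Rps27l reaches its highest values in effector Treg-like cells.

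Genes that work with the ribosome moved with the members to differing degrees. Unlike the members, they were not left out of the clustering that set the classes. Background over all genes was 18.4% lower and 20% higher in CD8, 25.4% and 26.2% in CD4, and 16.7% and 20% in Treg. Fau, whose product carries a ribosomal protein fused to a ubiquitin-like protein, and Rack1, a partner of the 40S subunit, fell in all 3 lineages, Rack1 by log2 differences of -0.75, -0.61 and -0.76 in CD8, CD4 and Treg. Of the other translation genes with a TOP tract, 14 of 15 tested were lower and 0 higher in CD8, 12 of 15 tested lower and 1 higher in CD4 and 12 of 15 lower and 0 higher in Treg (medians -0.40, -0.35 and -0.37). The subunits of elongation factor 1 Eef1b2 (-1.41, -1.08 and -1.04) and Eef1g (-1.17, -0.92 and -1.15) were among them. Of genes for ribosome biogenesis, 36 of 42 tested were lower and 0 higher in CD8, 36 of 43 tested lower and 0 higher in CD4 and 24 of 36 lower and 1 higher in Treg (medians -0.76, -0.53 and -0.57), with the rRNA methyltransferase Fbl at -1.07, -0.78 and -0.91 and nucleophosmin, Npm1, at -0.92, -0.71 and -0.81. The gene that rose in Treg was Eif6 (0.36), which keeps the subunits apart. Of mitochondrial ribosomal proteins, 22 of 74 tested were lower and 3 higher in CD8, 32 of 78 tested lower and 5 higher in CD4 and 14 of 73 lower and 4 higher in Treg, with medians of -0.16, -0.17 and -0.16, nearer to those of all genes.

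Of the regulators of these genes, 1 higher and 2 lower of 10 passed in CD8, 3 higher and 1 lower of 11 in CD4 and 1 higher and 3 lower of 10 in Treg. Background for this and the next lists was 20% higher and 18.4% lower in CD8, 26.2% and 25.4% in CD4, and 20% and 16.7% in Treg. With so few genes the regulator counts do not stand apart from it. Myc, a driver of ribosomal protein transcription, fell in each lineage (-1.34, -1.31 and -1.27). Rheb, the activator of mTORC1, rose in each (0.29, 0.69 and 0.50), and Larp1, which binds TOP transcripts, fell in CD8 and Treg (-0.49 and -0.58). Of p53 targets, 5 of 15 were higher and 4 lower in CD8, 7 of 17 and 4 in CD4 and 8 of 14 and 3 in Treg, with Cdkn1a at 1.45, 2.34 and 1.88 and Bbc3 at -0.60, -0.98 and -1.25. Of a list kept as a sign of RNA quality, the mt- genes with Malat1, Lars2, AY036118 and Gm42418, 15 of 17 tested were lower and 0 higher in CD8, 6 of 17 tested lower and 1 higher in CD4 and 13 of 17 lower and 1 higher in Treg, and its part in the members' fall was not tested. Markers of other cells also differed between the states. 7 myeloid markers summed to 39.9 to 93.0 CPM in resting and 116 to 139 in effector CD8 cells, where C1qb, Csf1r and Itgam were at 0, to 51.8 to 68.5 and 108 to 134 in CD4 and to 58.1 to 101 and 208 to 309 in Treg. 6 gamma delta T cell markers summed to 1.23 to 8.37 CPM in resting and 46.6 to 183 in effector CD8 cells, each with UMIs in both states, to 1.94 to 6.26 and 8.16 to 34.4 in CD4, and to at most 15.4 and 7.59 in Treg, with Trdv4 and Trgv2 at 0 at rest and Cd163l1 and Tcrg-C2 at 0 in effector cells. 5 epithelial markers summed to 0 to 15.6 CPM in resting and 47.8 to 119.9 in effector Treg cells, with Cldn7, Krt19 and Krt8 at 0 in both, and 7 B and plasma cell markers to 29.9 to 56.2 and 133 to 231, with Ms4a1 at 0. Their part was not tested.

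Between lineages at rest the differences were small and in 1 direction for most members. Comparing resting CD4 with resting CD8 cells, 70 of 83 members were lower and 1 higher by edgeR (background 14.3% lower and 14.7% higher), with a median log2 difference of -0.13 against -0.01 over all genes. Rpl23a, at the tunnel exit, had 710.3, 974, 571, 1058 and 1056 CPM in CD8 and 527, 807, 454, 906 and 916 CPM in CD4. CD4 is the lower one in each library although the ranges overlap, and the difference was -0.28 ± 0.03 (edgeR adjusted p = 3.37e-08). Rps18 (-0.26) and Rpl28 (-0.26) were among the largest differences too. Rps29 was the member called higher, at 0.06 ± 0.02 (edgeR adjusted p = 0.0106), and it was -0.02 without the CD4 cluster that has AY036118 and Lars2 among its leading genes. Without the block for library 3 members were called.

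Treg-like cells, taken whole, were lower than CD4 conventional cells in 79 of 83 members and higher in 1 (background 21.2% lower and 21.4% higher), with a median of -0.50 against -0.03 over all genes. Calls over all genes were 2040 higher and 2022 lower, and on library totals 3201 and 1135, where 75 members were lower. The level of Rps29, a small zinc-binding 40S protein, in CD4 cells was 15202 (untreated 1), 15428 (untreated 2), 8749 (S. chamaejasme), 10502 (combination 1) and 9408 (combination 2) (CPM), and in Treg-like cells 8921, 8325, 4598, 5104 and 4689. Treg was lower in each library, with a log2 difference of -0.93 ± 0.05 (edgeR adjusted p = 1.16e-09), although the untreated Treg and treated CD4 values overlap. Rps20 and Rps19 had -0.86 and -0.82. Rps27l went the other way, with 82.5, 98.3, 58.3, 59.95 and 59.7 CPM in CD4 and 132, 176, 125, 99.1 and 98.8 CPM in Treg, 0.82 ± 0.08 (edgeR adjusted p = 7.88e-07). Of p53 targets 10 of 17 tested were higher and 2 lower, and of ribosome biogenesis genes 0 higher and 31 of 43 lower. These sums mix states: effector cells were 63.7% to 79.4% of Treg and 26.3% to 46.1% of CD4 cells.

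The fall itself differed between CD8 and CD4 cells for few members. In a fit of both lineages, 11 members fell further in CD8 and 0 fell less (background 7.2% lower and 6.44% higher; members' median -0.13, all genes 0.00). Rpl28 had -0.42 ± 0.09 (edgeR adjusted p = 0.00115): -1.0 in CD8 and -0.56 in CD4. Rps20 had -0.39 ± 0.09. The count was 1 without the library block, 23 lower and 1 higher on library totals, 1 higher and 0 lower with marker gates, and 4 to 5 without untreated replicate 2, the S. chamaejasme library or either combination library.

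Clone size followed the state. In CD8 cells whose TCR clonotype held at least 3 cells of the library, the share of ribosomal protein UMIs was 29.3 (untreated 1), 28.7 (untreated 2), 26.8 (S. chamaejasme), 26.2 (combination 1) and 27.5 (combination 2) (percent), and in cells alone in their clonotype it was 37.8, 39.4, 37.5, 40.2 and 39.9. Expanded cells were lower in 5 of 5 libraries, with a difference of -11.2 ± 2.07 points, and 79 of 83 members were lower and 0 higher (edgeR, background 8.03% lower and 8.91% higher). Of 543 expanded cells 542 lay in the effector cluster, against 569 of 2108 single cells. Within that cluster, a comparison added after the class sizes were seen, expanded cells had 29.3, 28.7, 26.8, 26.2 and 27.5% and single cells 30.3, 27.9, 28.5, 25.9 and 27.1%. The ranges overlap, and no member passed the test there (edgeR, 1 of 82 at an unadjusted p under 0.05; median log2 difference 0.00).

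Between treatment groups, the share of ribosomal protein UMIs (mean per group) differed less within resting classes than over whole lineages. Whole lineages also differed in their mix of states. Effector classes did not all follow. In effector CD4 cells S. chamaejasme had 26.9% against 28.9% untreated, and over all CD4 cells 34.5% against 35.4%. In effector CD8 cells the combination had 26.5% against 28.9% untreated, and over all CD8 cells 38.9% against 36.5%. Over whole lineages the shares were 35.1 (untreated 1), 37.9 (untreated 2), 32.7 (S. chamaejasme), 39.3 (combination 1) and 38.6 (combination 2) (percent) in CD8, 34.6, 36.2, 34.5, 37.6 and 36.9 in CD4 and 28.3, 28.9, 25.5, 27.1 and 27.1 in Treg. In CD8 the S. chamaejasme library was lowest and the combination highest, and the share of effector cells was 59.3, 37.8, 70.4, 26.5 and 29.9% in the order of libraries used above. In the resting classes the untreated and treated values overlap (given above by library). In all 3 effector classes the untreated libraries were above the treated ones: 28.3 and 29.6% against 25.9 to 27.5% in CD8, 28.0 and 29.7% against 26.9 to 27.4% in CD4, and 24.2 and 25.1% against 22.5 to 23.3% in Treg.

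The untreated libraries stood apart in other ways that stand beside every group result. Gm42418, a predicted gene, was at 16590 (untreated 1), 21782 (untreated 2), 7704 (S. chamaejasme), 8507 (combination 1) and 9654 (combination 2) (CPM) in resting CD8 cells, and AY036118, also a predicted transcript, at 3709, 3900, 898, 1241 and 1176. Both were higher in the untreated libraries in each of the 6 classes. A resting CD4 cluster with Gm8797 and Plaur at its head and AY036118 and Lars2 among its 10 leading genes held 375 and 984 untreated cells and 25, 45 and 30 treated ones. Other resting CD4 clusters were skewed the other way. The cluster led by Ifngr2 and Klhdc2 held 79 and 72 untreated cells and 509, 1108 and 1027 treated ones. The cluster with Hspa1a, Jun and Hspa1b among its leading genes held 45 and 43 untreated cells and 640, 614 and 585 treated ones. The resting CD4 class was thus made up of its clusters differently in untreated and treated libraries. In resting CD4 cells of the S. chamaejasme library 4 erythroid markers summed to 1136 CPM, against at most 1.44 in the other libraries. Their part in the results below was not tested, and treatment and library preparation cannot be told apart, since the labels give no batch.

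Few members passed the test between groups, fitted over the 5 libraries of a lineage with edgeR. Combination against untreated gave 1 higher and 3 lower in CD8 (background 1.97% and 4.26%), 1 higher and 3 lower in CD4 (background 2.2% and 3.94%) and 0 higher and 4 lower in Treg (background 0.337% and 0.741%). S. chamaejasme, with 1 library assumed to vary like the rest, against untreated gave 1 higher and 6 lower in CD8 (background 1.69% and 2.06%), 1 higher and 2 lower in CD4 (background 0.602% and 0.955%) and 1 higher and 3 lower in Treg (background 0.539% and 0.37%). In CD8 and CD4 the members' share called for the combination is close to the background, in Treg it is above it. Both comparisons use the same 2 untreated libraries. Rps29 and Rpl35a were lower in all 3 lineages in both, and Rps27rt was higher in all 3 with S. chamaejasme and in CD8 and CD4 with the combination. The calls with S. chamaejasme hold only for some settings. Calls over all genes under such settings, here and below, are not given, so these counts cannot be read as particular to the members. In Treg, 0, 1 and 1 members were called within resting clusters, within effector clusters and with marker gates, and 0 with 1 or the other combination library left out (edgeR, where the settings with 0 had 13, 8 and 9 at an unadjusted p under 0.05). In CD4, 1 was called with stricter cells and 1 with 1 or the other combination library left out, while without untreated replicate 1 the counts were 70, 36 and 56 in CD8, CD4 and Treg. Members' median log2 differences were 0.12, 0.07 and -0.09 for the combination and -0.27, -0.06 and -0.16 for S. chamaejasme in CD8, CD4 and Treg, with those of all genes between -0.02 and 0.00.

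Of every 1000 ribosomal protein UMIs in CD8 cells, Rps29 made up 35.7 (untreated 1), 33.3 (untreated 2), 21.0 (S. chamaejasme), 22.4 (combination 1) and 21.2 (combination 2). The 2 untreated libraries are far above the 3 treated ones, which lie close together. The order was the same in CD4, with 42.2, 38.3, 24.3, 26.2 and 24.4, and in Treg, with 34.0, 28.7, 19.0, 20.4 and 19.0. On the scale of all genes the log2 difference of the combination was -0.58 ± 0.15, -0.62 ± 0.12 and -0.81 ± 0.10 (edgeR adjusted p = 0.0292, 0.0269 and 0.00496), and that of S. chamaejasme -1.0 ± 0.19, -0.83 ± 0.15 and -0.90 ± 0.13 (edgeR adjusted p = 0.0125, 0.0471 and 0.00635).

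Rpl35a, a 60S protein that is mutated in some Diamond-Blackfan patients, had 14.6, 12.8, 8.52, 8.66 and 8.33 per 1000 in CD8, 15.5, 12.9, 8.96, 8.71 and 8.47 in CD4 and 13.2, 10.8, 7.83, 7.92 and 7.65 in Treg, in the same order of libraries. Again every treated library was below both untreated ones. On the scale of all genes the combination's log2 differences were -0.60 ± 0.14, -0.67 ± 0.11 and -0.76 ± 0.11 (edgeR adjusted p = 0.0181, 0.0183 and 0.00913). Rps28 and Rpl38 had the same pattern, with 23.8, 22.0, 17.1, 16.2 and 15.8 and 16.1, 14.9, 11.9, 11.4 and 11.2 per 1000 in CD8. Relative to the summed members, Rpl35a, Rpl38, Rps28 and Rps29 were lower and Rpl12 was higher in the combination in all 3 lineages. Counts on that scale were 1 higher and 4 lower in CD8 (background 0.386% and 2.18%), 1 higher and 4 lower in CD4 (background 0.265% and 1.18%) and 5 higher and 8 lower in Treg (background 4.01% and 0.864%) for the combination.

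**Figure D5:**
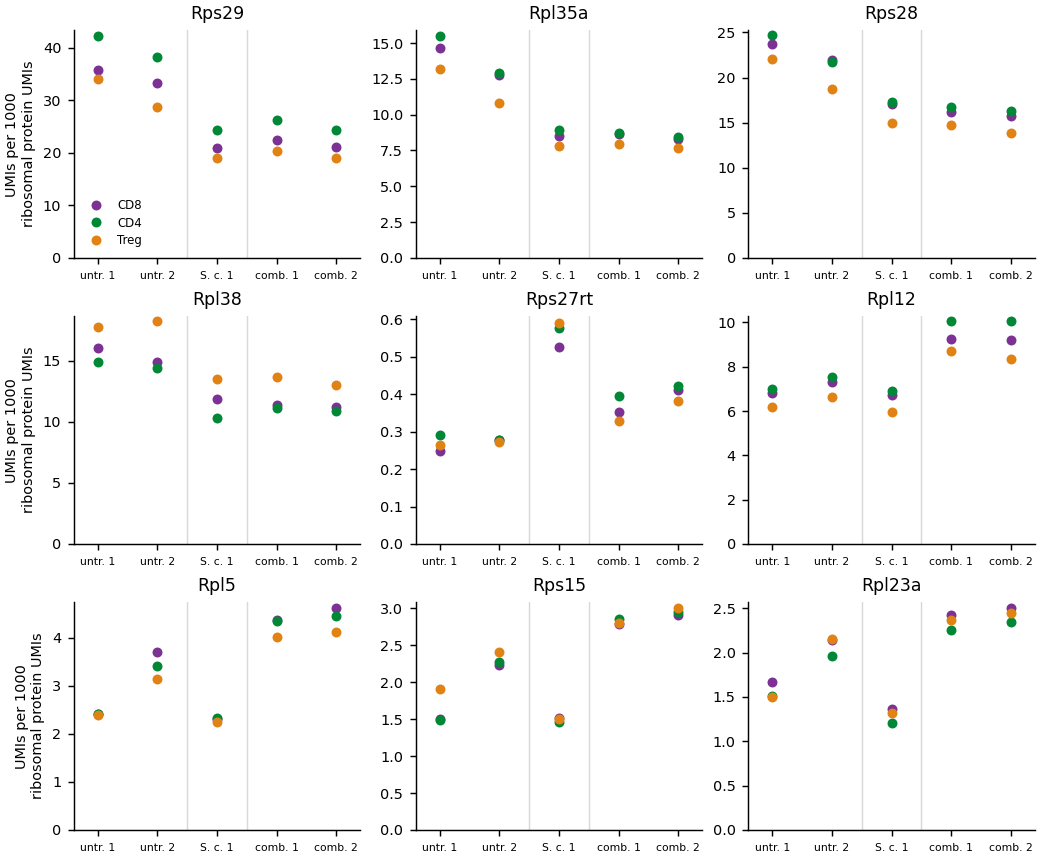
UMIs per 1000 ribosomal protein UMIs (vertical axes) of members named between groups, by library and whole lineage (CD8, CD4 and Treg). For Rps29 and Rpl35a the untreated points lie above all treated points in every lineage, and for Rps27rt below them.

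Rps27rt, whose first transcribed bases are nearly those of Rps27, had 0.786, 0.886, 1.90, 1.31 and 1.54% of the UMIs of its pair with Rps27 in CD8, 0.866, 0.823, 1.95, 1.32 and 1.44% in CD4 and 0.816, 0.874, 2.06, 1.20 and 1.42% in Treg. Both untreated libraries were lowest and the S. chamaejasme library highest in each lineage, and this order held in all 6 classes of lineage and state. With S. chamaejasme its log2 difference on the scale of all genes was 0.70 ± 0.18, 0.91 ± 0.11 and 0.93 ± 0.20 in CD8, CD4 and Treg. Its reads and those of the far more abundant Rps27 share a stretch of 38 bases, so the split of reads between these genes is uncertain.

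Combination against S. chamaejasme, a comparison with 1 library on the S. chamaejasme side, gave 7 higher and 0 lower in CD8 (background 1.04% and 1.41%), 0 higher and 0 lower in CD4 (background 0.0265% and 0.195%) and 0 higher and 0 lower in Treg (background 0.0673% and 0.123%). By unadjusted p under 0.05 there were 15 members in CD4 and 14 in Treg, and DESeq2 called 4 and 2. Leaving out 1 library moved these counts: without untreated replicate 1 they were 69, 27 and 31 in CD8, CD4 and Treg, and without untreated replicate 2 they were 69, 24 and 34. With 1 or the other combination library left out they were 3 or 4 in CD8, 4 or 1 in CD4 and 0 in Treg (edgeR, 5 and 7 of Treg at an unadjusted p under 0.05). Of every 1000 ribosomal protein UMIs in CD8 cells, Rpl5 made up 2.41 (untreated 1), 3.70 (untreated 2), 2.32 (S. chamaejasme), 4.37 (combination 1) and 4.63 (combination 2). Its log2 difference, combination minus S. chamaejasme, was 1.33 ± 0.27 on the scale of all genes and 0.957 relative to the summed members. Rps15, a 40S protein near the decoding site, had 1.5, 2.23, 1.52, 2.79 and 2.91 per 1000 and Rpl23a 1.67, 2.14, 1.36, 2.42 and 2.5. For these 3 the libraries with the fewest UMIs per cell, untreated replicate 1 and S. chamaejasme, are low and the deepest, the combination, high, and the part of depth was not tested. Relative to the summed members, Rpl12, Rpl17, Rpl23a, Rpl5 and Rps15 were higher in the combination than with S. chamaejasme in both CD8 (background 0.209% higher and 3.04% lower) and Treg (0.236% and 0.606%). Within resting and within effector CD8 clusters alone, 0 and 0 members were called (edgeR; 11 and 15 at an unadjusted p under 0.05).

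Counted over all 83 members as UMIs per 1000, 7 had both untreated libraries above every treated one in all 6 classes (Rps27, Rpl6, Rps13, Rpl38, Rps29, Rpl35a and Rps28), against a background of 0.529% of 10391 genes on that scale, and 8 had both below (Rps9, Rplp2, Rps27rt, Rpl23, Rps23, Rps7, Rpl3 and Rps10), against 1.7%. The counts of calls changed with single libraries. Calls over all genes are not given for the following settings either, so the counts cannot be read as particular to the members. Without untreated replicate 2, the combination differed from untreated in 54 higher and 8 lower in CD8, 37 higher and 8 lower in CD4 and 19 higher and 23 lower in Treg. Without untreated replicate 1 they were 7 higher and 11 lower, 7 higher and 12 lower and 1 higher and 53 lower, and without 1 or the other combination library 0 members were called in each lineage (edgeR, with 5 to 11 at an unadjusted p under 0.05). Without the CD4 cluster that has AY036118 and Lars2 among its leading genes the CD4 count was 36 higher and 1 lower, and within effector CD4 clusters 0 higher and 10 lower, so the direction of most called members differed with the cells taken.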

How the data were processed

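The authors deposited counts of UMIs per gene and cell barcode for 5 RNA libraries and TCR contig annotations with read and UMI counts per contig. Per the submitters' processing notes they were made with Cell Ranger 3.1.0 and STAR on mm10. A barcode counted as a cell from 300 genes up, with mitochondrial UMIs no higher than 10%. Scrublet's own threshold marked 17 cells. In its place the top-scoring cells, 0.8% of a library for each 1000 cells in it, and cells with 2 or more productive beta chains were taken out, 1310 in all. Clusters came from scanpy 1.11.5 (2000 variable genes without the members, 30 components, 15 neighbours, Leiden resolution 1). Counts were summed per library and class and tested with edgeR 4.0.16 (quasi-likelihood, TMM, filterByExpr, R 4.3.3), with library as a block for states, lineages and clones, since its classes come from 1 sample, and with group as the only term between treatments, 1 fit per lineage over 5 libraries. P-values were adjusted by Benjamini-Hochberg over all genes tested. The second scale sets the library size to the members' sum. The fits were tested on simulated counts with 200 changed genes. Alternatives were DESeq2 1.42.0, library totals, no low-count filter, stricter cells, doublets kept, marker gates, other clustering, single states, other clone sizes and each library left out.

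Members and lists were chosen with earlier results of these data known. Named members were those of the paralogue pairs, the 5 most abundant, and up to 5 with the largest difference in each direction among those past the threshold in each comparison on either scale. Rpl10a, Rpl11, Rpl13, Rpl15, Rpl23, Rpl6, Rpl9, Rplp2, Rps10, Rps23, Rps7 and Rps9 lie outside that rule and were chosen after their values were seen. Rpl3, Rpl10 and Rps4x fall under it through planned pairs with Rpl3l, Rpl10l and Rps4l, for which no share is given. They too were described after their values were seen. The other lists (Fau, Rack1 and related genes, other TOP genes, ribosome biogenesis, mitochondrial ribosomal proteins, regulators, p53 targets and RNA quality) were counted whole. Values of some genes are not reported here.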

Additional observations from a re-analysis of the deposited data

Results flagged for a closer look

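The state difference was larger in CD8 than in CD4 cells for these members by the test of that difference (edgeR, Benjamini-Hochberg adjusted p from 0.00115 to 0.0488, library as a block). The log2 state difference in CD8 minus that in CD4 was -0.42 for Rpl28, -0.39 for Rps20, -0.35 for Rpsa, -0.34 for Rpl22l1, -0.28 for Rpl10, -0.27 for Rplp1, -0.25 for Rpl13, -0.25 for Rpl35a and -0.25 for Rpl15. Each of them fell in both lineages, and the count of members called here varied widely with the settings given below. Transcripts outside the members, named as pseudogenes, took a large number of UMIs: Rpl9-ps6 508254, Rpl10-ps3 242811, Rps12-ps3 16967 and Rpl27-ps3 2292. Reads of a member and of such a copy may be exchanged, and this was not tested.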

How the results depend on the processing

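The fall of the members from the resting to the effector state was called for 80 to 81 members in each lineage whichever library was left out. Counts between treatment groups varied most, from fits with 2 residual degrees of freedom. Calls over all genes are not given for the alternatives below, so those counts cannot be read as particular to the members. Of the tests of named members under the alternatives, 2916 kept direction and side of the threshold, 383 kept the direction but not the threshold, and 10 changed sign. Depth limits the scarce members, Rps19bp1, Rpl7l1 and Rps27l, in single classes of a library. The cause of the differences below was not tested. Without the block for library, members called numbered 3 for resting CD4 against CD8 and 1 for the CD8 and CD4 difference in state, and on the scale of the members' sum 27, 24 and 25 for effector against resting in CD8, CD4 and Treg. On library totals without TMM, members called numbered 24 for the CD8 and CD4 difference in state, 8, 7 and 9 for combination against untreated in CD8, CD4 and Treg, 10 for S. chamaejasme against untreated in Treg and 6 for combination against S. chamaejasme in Treg. With DESeq2, members called numbered 2 and 8 for combination against untreated in CD8 and CD4, 4, 4 and 2 for combination against S. chamaejasme in CD8, CD4 and Treg and 6 for S. chamaejasme against untreated in CD4, and on the scale of the members' sum 35 for effector against resting in CD8 and 3, 10 and 3 for combination against untreated in CD8, CD4 and Treg. With no filter on low counts, members called numbered 16, 18 and 7 for combination against untreated in CD8, CD4 and Treg, 15, 13 and 10 for S. chamaejasme against untreated in CD8, CD4 and Treg and 24, 13 and 6 for combination against S. chamaejasme in CD8, CD4 and Treg, and on the scale of the members' sum 19 and 25 for combination against untreated in CD8 and CD4. With marker gates in place of clusters, members called numbered 1 for the CD8 and CD4 difference in state, 2 and 7 for combination against untreated in CD8 and CD4, 2 for combination against S. chamaejasme in CD4 and 1 for S. chamaejasme against untreated in Treg, and on the scale of the members' sum 8 and 5 for combination against untreated in CD4 and Treg. The difference of Rpl36a between the Treg states relative to the summed members, now of the opposite sign, was 0.0263 (log2). The difference in share, CD4 effector against resting, was -14.3 points. Rpl22l1's part of its pair, Treg effector against resting, changed by 8.32 points. Rps27l's part of its pair, CD4 effector against resting, changed by 0.433 points. Rpl36al's part of its pair, CD8 effector against resting, changed by 8.48 points. Rpl36al's part of its pair, Treg effector against resting, changed by 2.75 points. Rpl7l1's part of its pair, CD4 effector against resting, changed by 0.746 points. Rpl7l1's part of its pair, Treg effector against resting, changed by 2.24 points. With the members kept in the clustering, members called numbered 4 for S. chamaejasme against untreated in CD8 and 4 for combination against S. chamaejasme in CD8. Within resting clusters alone, members called numbered 1 and 0 for S. chamaejasme against untreated in CD8 and Treg and 0 for combination against S. chamaejasme in CD8, and on the scale of the members' sum 11 for combination against untreated in CD8. Within effector clusters alone, members called numbered 7 and 10 for combination against untreated in CD8 and CD4, 0 for combination against S. chamaejasme in CD8 and 1 and 1 for S. chamaejasme against untreated in CD4 and Treg, and on the scale of the members' sum 5 for combination against untreated in Treg. With stricter cells (500 genes, 5% mitochondrial UMIs), members called numbered 1 for S. chamaejasme against untreated in CD4, and on the scale of the members' sum 2 for combination against untreated in CD4. Without the CD4 cluster that has AY036118 and Lars2 among its leading genes, members called numbered 37 for combination against untreated in CD4 and 1 for S. chamaejasme against untreated in CD4, and on the scale of the members' sum 15 for combination against untreated in CD4. The difference of Rps29 between resting CD4 and CD8 was -0.0228 (log2). With doublets kept, on the scale of the members' sum 7 for combination against untreated in Treg. Rps27l's part of its pair, CD4 effector against resting, changed by 0.276 points. Within the CD8 effector cluster (clones, an alternative added after seeing the data), members called numbered 0 for expanded against single clones. Log2 differences of the opposite sign were 0.0221 for Rpl22, 0.00877 for Rpl22l1, 0.0344 for Rpl36al, 0.0305 for Rps19, 0.0144 for Rps27 and 0.00705 for Rps27rt over all genes and -0.0171 for Rpl27 and 0.0314 for Rps19 relative to the summed members. With the median over cells of the share, the difference in share, Treg against CD4 conventional, was -11.7 points. With 1 library left out at a time, members called ranged from 1 to 36, 2 to 70 and 0 to 56 for S. chamaejasme against untreated in CD4, CD8 and Treg, 1 to 27, 3 to 69 and 0 to 34 for combination against S. chamaejasme in CD4, CD8 and Treg, 0 to 45, 0 to 62 and 0 to 54 for combination against untreated in CD4, CD8 and Treg and 4 to 16 for the CD8 and CD4 difference in state. On the scale of the members' sum they ranged from 3 to 47, 2 to 56 and 3 to 41 for combination against untreated in CD4, CD8 and Treg. The pair shares ranged from -1.11 to 0.192 points for Rpl22l1 in CD4 effector against resting, the positive value without untreated replicate 1. No paired analysis was possible between treatment groups because replicate numbers there follow accession order alone and tie no libraries together.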

Other observations

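Copies named as pseudogenes differed in how their part of a pair went with the state. These copies were not left out of the clustering that set the states. Rpl9-ps6 held 81.6 ± 1.02% of the UMIs it shared with Rpl9 in resting CD8 cells (SD, n = 5), and the effector cells of a library differed by 0.163 ± 0.600 points in CD8, -0.499 ± 0.521 in CD4 and 0.0151 ± 0.866 in Treg (SD). Rpl10-ps3 held 78.3 ± 3.25% of its pair with Rpl10 in resting CD8 cells. Effector cells differed by -3.04 ± 0.903 points in CD8 and -2.52 ± 0.837 in CD4 (lower in 5 of 5 libraries in both) and by 0.405 ± 1.28 points in Treg (higher in 4 of 5).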
